A study of Sus scrofa with 6 samples.

Results

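Genes that drive and restrain the cell division cycle were examined in aortic valve leaflets of 3 female and 3 castrated male pigs. A list of 60 gene names, from cyclins and replication factors to spindle and checkpoint proteins, was searched in the annotation of the array, and 36 of the names had at least 1 probe set that carries that symbol alone. They are 36 of the 6765 genes the annotation names in this way, and each was represented by its probe set with the highest mean over the 6 arrays. MKI67, CDK1 (also listed by its older name CDC2), CCND1, CCND3, CCNE1, CCNE2, CDK4, CDKN1C, RB1, E2F1, E2F4, CDC6, MCM6, MCM7, RFC4, POLA1, POLD1, BUB1, BUB1B, TTK, TPX2 and KIF11 matched no symbol and were not analysed here. CDK6 was kept out of the counts because both of its probe sets are listed under 2 gene records.

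The pigs were of mixed breed and 5 months old and came from a slaughterhouse, where males are castrated young, so the male group differs from intact males in its hormones. Each array held the leaflet RNA of 1 pig, and the labels name no treatment. The endothelium had been scraped from every leaflet, which leaves the valvular interstitial cells (VICs), the fibroblast-like cells of the leaflet body, as the intended source of RNA. Removal of the endothelium was examined by the authors on parallel leaflets and not on these. Values are log2 expression values made with RMA, and their precision is limited by the number of arrays. Of the interstitial markers, VIM read between 14.30 and 14.44 and the proteoglycan DCN between 13.91 and 14.52. The measured collagen markers were dimmer, with COL1A2 at 8.97 to 9.61 and COL3A1 at 7.05 to 7.36, near the array medians. Probe sets of the Y chromosome genes DDX3Y, EIF1AY and UTY read 6.48 to 11.74 in males and 3.04 to 4.42 in females, which shows what a probe set reports without its transcript. Medians of the arrays lay between 7.33 and 7.38.

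As background, cells leave quiescence when D-type cyclins with CDK4 or CDK6, and then cyclin E with CDK2, inactivate the retinoblastoma family and free E2F factors to transcribe the genes of DNA replication. Licensing factors load the MCM helicase on origins, PCNA and the polymerases copy the DNA, and cyclin B with CDK1 starts mitosis, whose exit waits for the spindle checkpoint. Many of these transcripts are made only in S, G2 or M phase, so their level in a tissue tends to follow the share of dividing cells. VICs of a healthy valve are largely quiescent, and proliferation is among the features of valve disease that the study examined in both sexes. In RNA of whole leaflets, fewer cells of a type and less RNA per cell cannot be told apart.

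Small differences of the same sign were seen in most cell cycle genes, and none of them passed the test. Of the 36 genes, 26 had a higher mean in males and 10 a lower one, with a median log2 fold change (male minus female) of 0.22 and a range from -0.33 to 0.77. A higher mean in males was also found in 58.3% of all annotated genes, taken 1 probe set per gene, and in 49.1% of all 23999 probe sets, with medians of 0.05 and -0.01. No gene was called, that is, reached a Benjamini-Hochberg adjusted p under 0.05 over all probe sets in limma together with a 2-fold difference. Calls were rare everywhere, at 0.304% of all probe sets and 0.222% of the annotated genes. An ordinary test of each gene gave 0 calls too, and 4 genes higher and 0 lower at an unadjusted p under 0.05. All 36 genes differed by less than 2-fold, and none passed on the p alone either: the smallest adjusted p was 0.170, for BUB3.

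At an unadjusted limma p under 0.05, 6 cell cycle genes were higher in males (CDK2, GMNN, MCM5, PCNA, BUB3 and MAD2L1) and 0 were lower. This is 16.7% higher and 0% lower, against 11% and 6.53% of the annotated genes and 8.08% and 8.83% of all probe sets. In either direction together it was 16.7%, against 17.5% of the annotated genes and 16.9% of all probe sets, a share near the background. The 3 male values lay above the 3 female values without overlap for 7 genes, those 6 and CKS1B, and below them for 0. This is 19.4% of the genes, where 15.7% of annotated genes lay without overlap above and 9.08% below, and 11.1% and 11.4% of all probe sets. With 3 arrays per sex, the smallest two-sided p of an exact permutation test is 0.1, which each of these 7 genes reaches. The count of 6 genes was 2 without male replicate 1, 3 without male replicate 2, 14 without male replicate 3 and 2 without female replicate 3. Shares of all probe sets at that p without these arrays are not given here. Calls over all probe sets moved as well, from 73 with all arrays to 21, 13, 285 and 20 without the same arrays in that order. Left out 1 at a time, the arrays moved the log2 fold change of 8 genes by no more than 1.5 times, namely the 7 without overlap and EZH2. The sign was kept throughout by 29 of the 36 genes, and CCND2, CDKN1A, CCNG2, FOXM1, MCM4, RRM1 and AURKB had the other sign without at least 1 array. For the 7 genes without overlap the sign could not change.

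The authors filtered probe sets by their coefficient of variation (CV) before testing, at a limit not given in the sources used here. Their stated aim was to remove values that were too unlike across biological replicates. The filter below does not follow that aim. In a filter that kept the 10% of probe sets of highest CV, a choice made here, 7.59% were called. Of the 36 counted genes RRM2, CCNB1, CCNB2 and CCNA2 entered that test, with adjusted p values of 0.218 to 0.598 from limma. The other 32 had too small an SD over the 6 arrays relative to their mean to be kept. By this measure a bright gene needs a larger spread than a dim one. Of the probe sets kept out of the counts, the dimmer one of CDK6 entered as well (adjusted p = 0.0827 from limma).

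**Figure D1:**
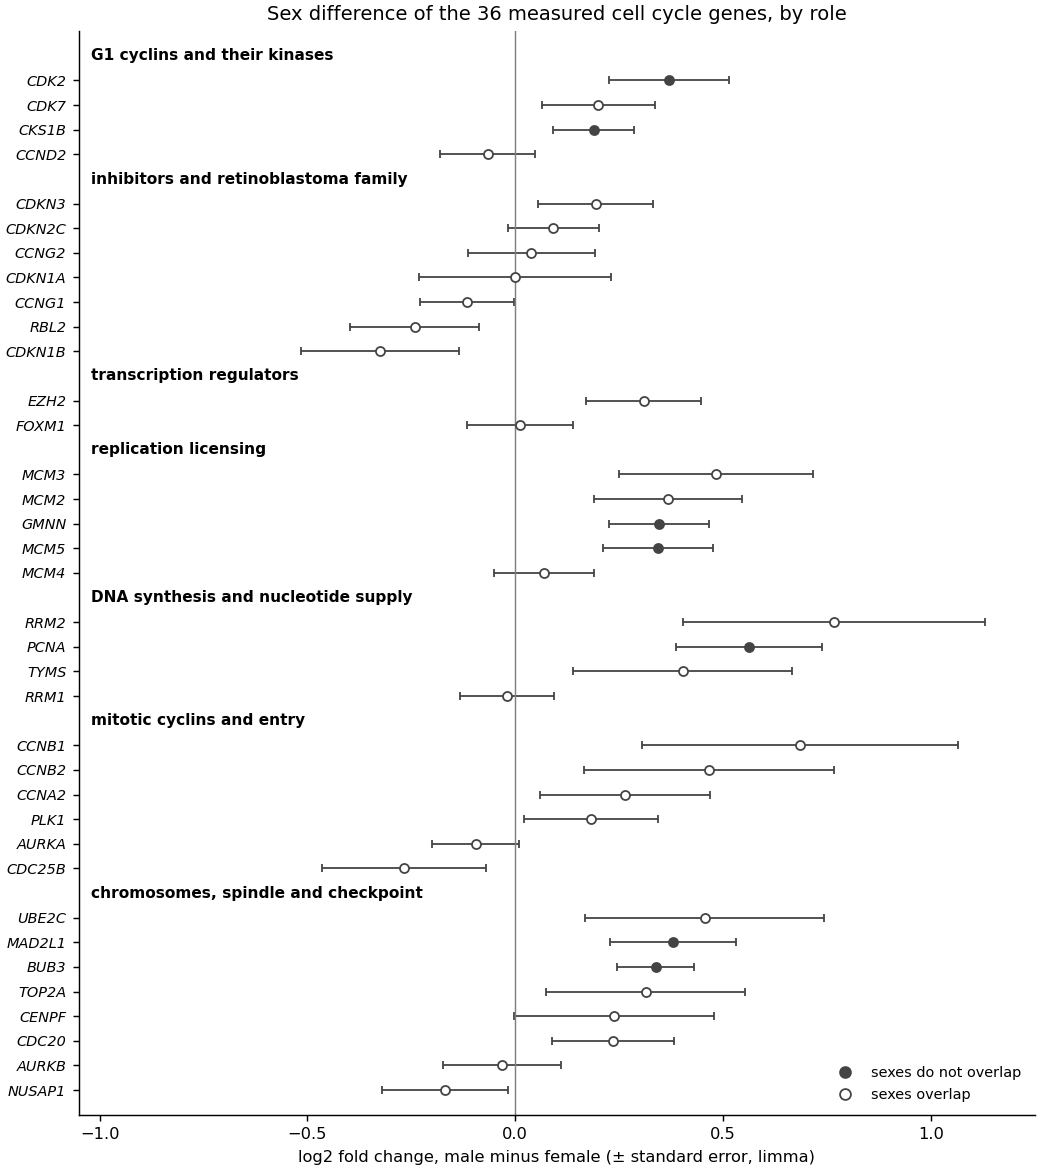
Log2 fold change, male minus female, of the 36 measured cell cycle genes with the standard error from limma (horizontal bars), grouped by role. Filled points mark the 7 genes whose male and female values do not overlap; the points run from -0.33 for CDKN1B to 0.77 for RRM2.

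Of the 4 counted genes of the G1 phase, 3 had a higher mean in males. Their log2 fold changes ran from -0.07 to 0.37, and none was called. CDK2, the kinase that acts with cyclin E at the start of S phase, read 8.86, 8.46 and 8.53 in male replicates 1, 2 and 3 and 8.42, 8.21 and 8.11 in female replicates 1, 2 and 3. The lowest male array lay just above the highest female array, and the log2 fold change was 0.37 (standard error (SE) of 0.14, limma adjusted p = 0.268). CKS1B, a small subunit bound by CDKs that helps in the destruction of the inhibitor p27, read 10.97, 10.84 and 10.79 in males and 10.67, 10.72 and 10.65 in females. All male values of CKS1B were higher, by 1.14-fold on average (limma adjusted p = 0.382). CCND2, a D-type cyclin that passes growth factor signals to CDK4 and CDK6, had a log2 fold change of -0.07 with overlapping sexes. CDK7, which activates other CDKs and also phosphorylates RNA polymerase II, had one of 0.20 and overlapped as well.

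Neither probe set of CDK6, the other partner of D-type cyclins, entered the counts, and they are described here after their values were seen. At the brighter of them the males read 10.45, 10.05 and 9.48 and the females 9.38, 9.46 and 9.44, so male replicate 3 stood only just above the females. At the other the males read 9.17, 8.72 and 8.29 and the females 7.87, 7.93 and 6.93. The log2 fold changes were 0.56 and 1.15 (adjusted p = 0.282 and 0.174 from limma). The larger of these exceeds that of every counted cell cycle gene, and neither passed.

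Inhibitors and members of the retinoblastoma family went both ways and overlapped between the sexes without exception. CDKN1A, the p53 target p21, had the same mean in both sexes (12.31 ± 0.27 in males and 12.31 ± 0.42 in females, SD, n = 3), with female replicate 2 highest at 12.80. CDKN1B, the inhibitor p27 that holds cells in quiescence, read 10.61, 10.84 and 11.06 in males and 11.43, 10.80 and 11.26 in females. Female replicate 2 lay among the males, and the log2 fold change of -0.33 was the lowest of the 36 genes (SE 0.19, limma adjusted p = 0.434). RBL2, the pocket protein p130 that represses E2F targets in resting cells, read 10.38, 10.50 and 10.86 in males and 10.82, 10.68 and 10.98 in females, which differ by -0.24. CDKN2C, which binds CDK4 and CDK6, had a log2 fold change of 0.09, CDKN3, a phosphatase of CDKs, one of 0.19, and the atypical cyclins CCNG1 and CCNG2 -0.12 and 0.04. In this group 3 of 7 genes had a higher mean in males, and the median log2 fold change was -0.0004.

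Among transcription regulators, FOXM1, which drives genes of G2 and mitosis, had a log2 fold change of 0.01. EZH2, the methyltransferase of histone H3 in the Polycomb repressive complex and a gene of dividing cells, read 7.83, 7.79 and 7.43 in males and 7.50, 7.36 and 7.27 in females. Only male replicate 3 lay among the females, and the log2 fold change was 0.31 (SE 0.14, limma adjusted p = 0.317). A second probe set carries the name EZH2 only in the authors' list of called genes. There the order was turned, with males at 4.87, 6.13 and 6.70 and females at 7.13, 8.09 and 8.71. That probe set was listed because it differed on these same arrays, so its log2 fold change of -2.08 is given as a description. The authors took the names in their list from chip annotations. In a fit limited to the 10% of probe sets of highest variation the probe set met both call criteria, on the same arrays that led to its listing. It was not counted. Male replicate 1 lay under the 25th percentile of its array there. A brighter probe set, which the annotation gives to EZH2 together with another symbol and which therefore cannot be assigned, had a log2 fold change of -0.21 with overlapping sexes. The probe sets that carry the name EZH2 in some way thus differ in sign, and 0.31 is the value of the single one that names it alone.

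Replication licensing genes had higher means in males in 5 of 5 cases, at a median difference of 0.35 on the log2 scale and with none called. GMNN, geminin, which blocks relicensing once S phase has begun, read 10.06, 9.89 and 9.79 in males and 9.57, 9.43 and 9.69 in females. The groups did not overlap, and the difference was 0.35 on the log2 scale (SE 0.12, limma adjusted p = 0.229). MCM5, a subunit of the replicative helicase, read 7.70, 7.60 and 7.48 in males and 7.42, 7.30 and 7.03 in females, also without overlap (difference 0.34, SE 0.13, limma adjusted p = 0.262). The helicase subunits MCM2, MCM3 and MCM4 overlapped between the sexes, with log2 fold changes of 0.37, 0.48 and 0.07. MCM3 depended on female replicate 3, at 6.60 against 7.32 to 7.82 on the other arrays, and its log2 fold change was 0.22 without that array. The difference of MCM4 had the opposite sign, -0.01, without female replicate 2.

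For DNA synthesis, PCNA, the sliding clamp that tethers DNA polymerases, had the smallest p of its group. It read 10.52, 10.24 and 9.91 in males and 9.80, 9.71 and 9.47 in females. Every male array was above every female array, by 1.48-fold between the means (SE 0.18 on the log2 scale, limma adjusted p = 0.196), and the log2 fold change lay between 0.42 and 0.72 whichever array was left out. RRM2, the ribonucleotide reductase subunit made in S phase, read 7.44, 7.00 and 6.07 in males and 6.32, 6.30 and 5.59 in females. Male replicate 3 lay within the females, the SD was 0.70 in males and 0.42 in females (n = 3), and the log2 fold change of 0.77 ranged from 0.47 without male replicate 1 to 1.15 without male replicate 3. With all arrays the limma adjusted p of RRM2 was 0.339. RRM1, the partner subunit that is present throughout the cycle, had a log2 fold change of -0.02 with all values between 9.95 and 10.24. TYMS, thymidylate synthase, had one of 0.40, and female replicate 2 equalled the highest male at 7.38. Without female replicate 3 it was 0.14, and without female replicate 2 it was 0.69.

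**Figure D2:**
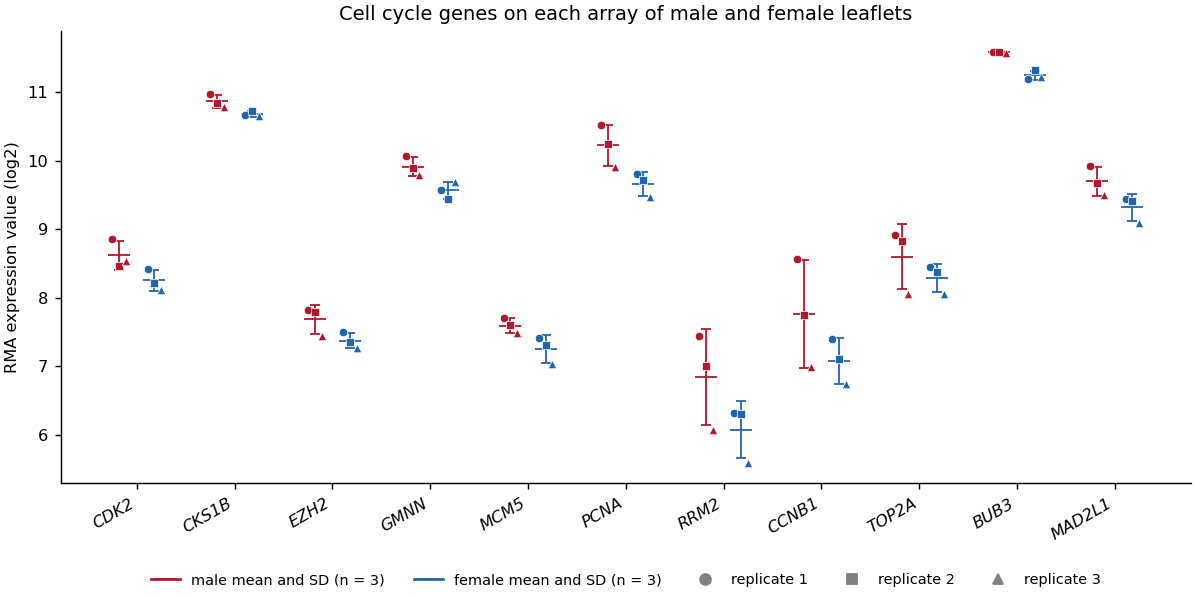
RMA expression value (log2, vertical axis) of 10 cell cycle genes with full statistics and of CCNB1 on each array, males in red and females in blue, with replicates 1, 2 and 3 as circle, square and triangle and bars for mean and SD (n = 3). The sexes separate for CDK2, CKS1B, GMNN, MCM5, PCNA, BUB3 and MAD2L1, while for EZH2, RRM2, CCNB1 and TOP2A male replicate 3 (red triangle) lies among the females.

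Mitotic cyclins varied widely among males, and CCNB1 had an SD of 0.79 there and of 0.34 in females (n = 3). CCNB1, cyclin B1, the partner of CDK1 at mitotic entry, read 8.56, 7.75 and 6.98 in males and 7.40, 7.10 and 6.73 in females. Male replicate 1 stood above all other arrays and male replicate 3 below female replicates 1 and 2, so the sexes overlapped despite a log2 fold change of 0.69 (SE 0.38, limma adjusted p = 0.410). Without male replicate 1 it was 0.29, and without male replicate 3 it was 1.08. CCNB2, cyclin B2, read 7.02, 6.43 and 5.71 in males and 5.96, 5.99 and 5.80 in females, with male replicate 1 highest and male replicate 3 lowest of all arrays. Its log2 fold change was 0.47, but 0.15 without male replicate 1 and 0.80 without male replicate 3. CCNA2, cyclin A2 of S and G2 phase, lay under the 25th percentile of every array, at 4.01 to 4.73, which reaches into the range of Y-linked probe sets in females, so that little can be read from it. Of the mitotic kinases, PLK1 had a log2 fold change of 0.18, but 0.03 without male replicate 1, and AURKA one of -0.09, and the phosphatase CDC25B, which activates CDK1, had one of -0.27, with male replicate 1 lowest at 8.89 and female replicate 1 highest at 9.71.

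Spindle and checkpoint genes had a higher mean in males in 6 of 8 cases, with a median log2 fold change of 0.28. BUB3, a kinetochore protein of the spindle checkpoint, read 11.59, 11.59 and 11.57 in males and 11.19, 11.32 and 11.23 in females. The male arrays were nearly identical and all above the females, with an SD of 0.0071 in males and 0.07 in females (n = 3), and the difference of 0.34 (SE 0.09) was 1.26-fold. MAD2L1, the checkpoint protein that holds back CDC20, read 9.92, 9.67 and 9.50 in males and 9.45, 9.41 and 9.09 in females, again without overlap (difference 0.38, SE 0.15, limma adjusted p = 0.275). TOP2A, the topoisomerase that untangles chromosomes and a usual marker of dividing cells, read 8.92, 8.83 and 8.06 in males and 8.44, 8.37 and 8.05 in females. Male replicates 1 and 2 were above all females and male replicate 3 was level with the lowest female, and the difference was 0.31 (SE 0.24, limma adjusted p = 0.555), with 0.16 without male replicate 1 and 0.59 without male replicate 3.
UBE2C, the ubiquitin-conjugating enzyme of mitotic exit, read 9.39, 9.04 and 8.19 in males and 8.49, 8.51 and 8.25 in females. Its log2 fold change was 0.46, but 0.20 without male replicate 1 and 0.80 without male replicate 3. CDC20, the activator of the anaphase-promoting complex, had a log2 fold change of 0.24 and CENPF, a kinetochore protein, also one of 0.24. Without male replicate 1 they were 0.10 and 0.09, and CENPF was at 0.03 without female replicate 2. NUSAP1, which bundles spindle microtubules, had one of -0.17, and AURKB, the kinase of the chromosomal passenger complex, one of -0.03. Male replicate 3 had the lowest value of the males in 8 of the 8 genes of this group, and male replicate 1 the highest.

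The same order of the male arrays recurred in many of the 36 genes. Male replicate 1 had the highest value of all 6 arrays in 21 of the 36 cell cycle genes (58.3%), against 30.6% of the annotated genes. It was the highest and male replicate 3 the lowest of the males in 21 genes, against 28.2% of the annotated genes. Among the 80 further cell cycle genes described at the end, male replicate 1 was highest of all arrays in 36.2%, and the order of the males was the same in 38.8%. By role this held for 8 of 8 spindle and checkpoint genes, 4 of 6 genes of mitotic entry, 3 of 5 licensing genes and 2 of 4 genes of DNA synthesis, but for 2 of 7 inhibitors and retinoblastoma family genes. Medians over the spindle and checkpoint genes, taken after each gene's mean over the 6 arrays was subtracted, were 0.40, 0.17 and -0.25 in male replicates 1, 2 and 3 and -0.03, -0.09 and -0.17 in female replicates 1, 2 and 3. The SD of these medians was 0.33 among males and 0.07 among females. For the inhibitors the same medians lay between -0.08 and 0.06 on all arrays.

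Across the 6 arrays the values of CCNB1, chosen after its values were seen, ran closest to those of CDC20 (Pearson r = 0.98), CCNB2 (0.97), RRM2 (0.97), UBE2C (0.96) and MCM2 (0.95). They ran against RBL2 (-0.92), AURKA (-0.81) and CCNG1 (-0.70). All 6 points of each pair share the same arrays and the same sexes, and the correlations are a description. Over the 23 genes of licensing, synthesis, mitotic entry and spindle the median r of a pair was 0.55, and over the other 13 genes it was -0.02.

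In their medians, markers of endothelial cells, which line the leaflet, took the same order of the male arrays as the spindle and checkpoint genes. The order over all arrays was not the same. Male replicate 3 lay above every female for the endothelial markers and below every female for the spindle and checkpoint genes. Of 10 listed markers 9 were measured, 8 of them with a higher mean in males and none called, and their median log2 fold change was 1.09. PECAM1, an adhesion molecule of endothelial junctions, read 13.69, 13.31 and 12.61 in males and 12.16, 12.28 and 11.83 in females, so male replicate 1 was highest and male replicate 3 lowest of the males, as for CCNB1. Medians of the 9 markers, after subtraction of each gene's mean, were 1.10, 0.66 and -0.03 in male replicates 1, 2 and 3 and -0.73, -0.19 and -0.78 in female replicates 1, 2 and 3. The sum of the 9 markers on the linear scale ranged from 11170 to 24960 in males and from 6926 to 11760 in females. Of the 9, only KDR lay near the level of absent transcripts. Its probe set read 4.23 to 4.79, where Y-linked probe sets in females reached 4.42. That probe set was under the 25th percentile of every array, with a log2 fold change of -0.19 and overlapping sexes. The study reports KDR as upregulated in males, on the arrays and by qRT-PCR. Whether that result came from this probe set was not tested. CCNB1 correlated with 6 of the 9 markers at r of 0.82 to 0.89, and with CLDN5, VWF and KDR at 0.32, 0.39 and -0.42. Whether endothelial RNA has a part in the differences of the cell cycle genes was not tested. The 8 measured interstitial markers had medians from -0.16 in male replicate 1 to 0.15 in female replicate 3, and none was called. These medians hide single markers that went either way. S100A4 read 11.16, 10.72 and 10.08 in males and 9.31, 9.77 and 9.28 in females (limma adjusted p = 0.134). Its males took the same order as for PECAM1. DCN was lower in males without overlap (log2 fold change -0.38, limma adjusted p = 0.197). The rest of the interstitial markers overlapped between the sexes. Lymphocyte markers took another order: of 7 measured, 5 were highest in female replicate 1, and their medians were 0.54 there, 0.48 in male replicate 2 and -0.09 in male replicate 1. Macrophage markers were highest in female replicate 1 (0.28) and male replicate 2 (0.26). Smooth muscle markers had medians of -0.19, -0.12 and 0.33 in male replicates 1, 2 and 3. Those of cardiomyocyte markers were -0.23, -0.15 and 0.20, so male replicate 3 had the highest median of all arrays in both lists. The cardiomyocyte markers ACTC1 and TNNT2 lay under the 25th percentile of every array.

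**Figure D3:**
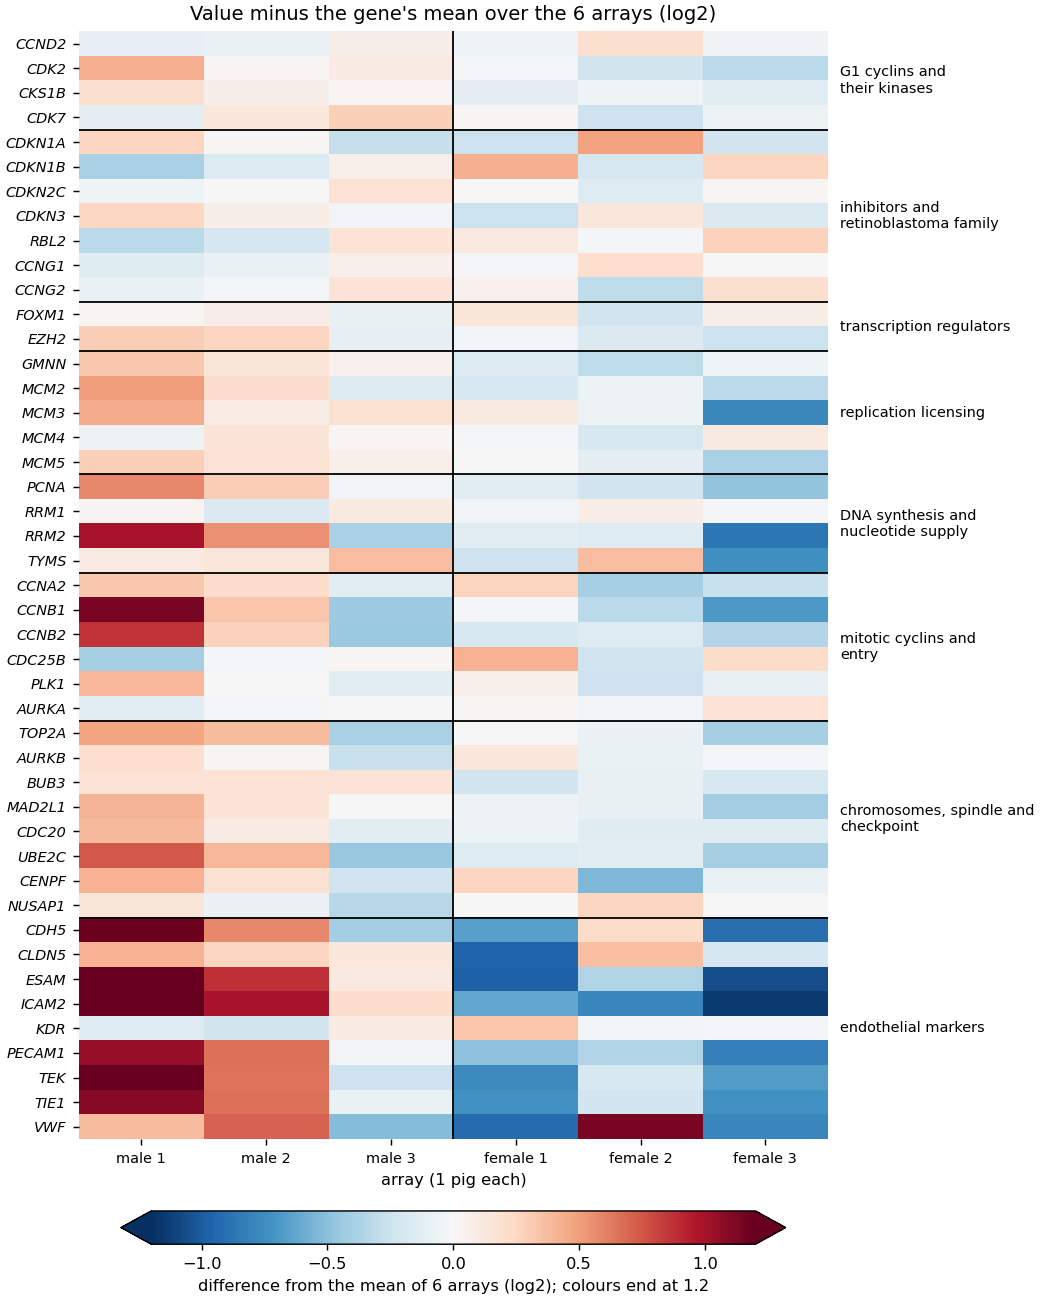
Value of each gene minus its mean over the 6 arrays (log2, red above and blue below the mean, colours ending at 1.2), with the 36 cell cycle genes by role above and 9 endothelial markers below, and a column per array. Male replicate 1 is highest in 21 of the 36 cell cycle genes and in 7 of the 9 endothelial markers.

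Probe sets of one gene did not always go the same way. Of 9 cell cycle genes with 2 or 3 probe sets, 5 had log2 fold changes of a single sign. MCM2 had 0.37, 0.28 and 0.23 at its 3 probe sets, the last of them under the 25th percentile on all 6 arrays. Both probe sets of MCM4 were positive (0.07 and 0.32), the latter under the 25th percentile on 5 of the 6 arrays. AURKA was negative at both (-0.09 and -0.30), the latter at an unadjusted limma p under 0.05 and an adjusted p of 0.239. CDK2 was positive at the brightest and the second probe set (0.37 and 0.13) and negative at the dimmest (-0.11). Of the 3 MCM5 probe sets, 2 were positive (0.34 and 0.28) and the dimmest, with a mean under the 25th percentile, was at -0.04. The brighter UBE2C probe set had 0.46 and the dim one -0.07, and CDKN1B had -0.33, 0.09 and -0.09. UBE2C was thus higher in males at 1 of 2 probe sets and CDK2 at 2 of 3.

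**Figure D4:**
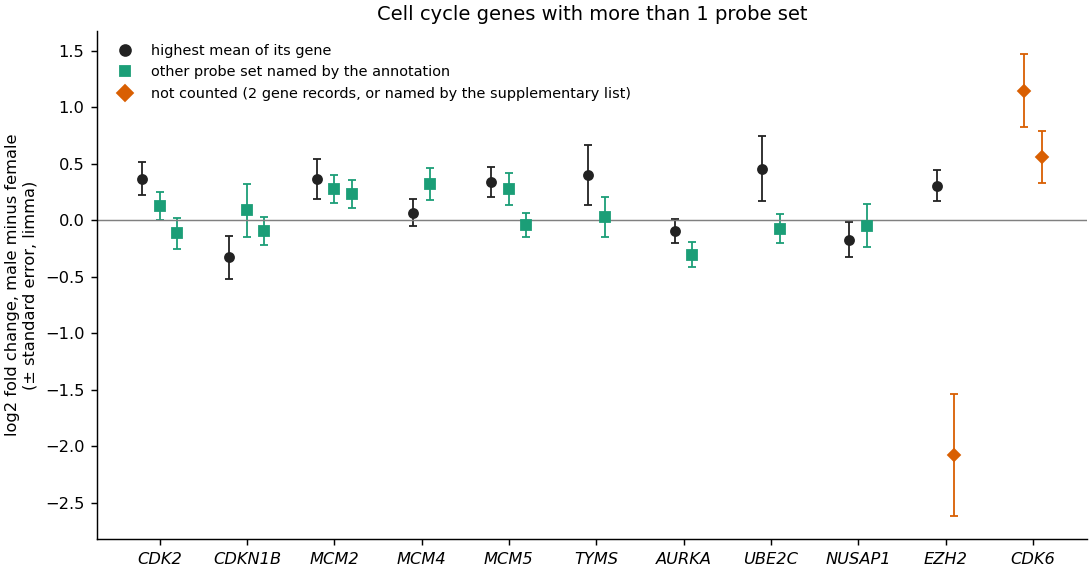
Log2 fold change, male minus female, with the standard error from limma (vertical bars), for each probe set of the 9 cell cycle genes with several, and for EZH2 and CDK6 with probe sets kept out of the counts. MCM2 lies above 0 at its 3 probe sets, while EZH2 lies at 0.31 with the counted probe set and at -2.08 with the one from the authors' list. The EZH2 probe set with 2 symbols is not drawn.

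Further genes of the same pathways were drawn from a list of 151 names, of which 80 were measured. In limma none was called, the mean was higher in males for 50 and lower for 30, and the median log2 fold change was 0.04. At an unadjusted limma p under 0.05, 4 were higher and 7 lower, which is 5% and 8.75%. Among annotated genes these shares were 11% and 6.53%, and among all probe sets 8.08% and 8.83%, so the higher share lay under both backgrounds. The higher count was 0 without male replicate 1, 0 without male replicate 2, 12 without male replicate 3, 7 without female replicate 1, 8 without female replicate 2 and 1 without female replicate 3, and the lower count 1 without male replicate 1, 3 without male replicate 2, 2 without female replicate 1 and 4 without female replicate 3. Shares of all probe sets without these arrays are not given here. Males had the higher mean in 17 of 21 mitosis genes (median difference 0.17), 16 of 26 replication genes (0.07), 8 of 15 cyclins, kinases and inhibitors (0.01) and 9 of 18 regulators of transcription and checkpoints (-0.0042). MELK, a kinase of dividing cells, read 8.56, 8.07 and 7.41 in males and 7.32, 7.39 and 7.01 in females. Its males lay above its females, with male replicate 1 highest, and the log2 fold change was 0.77 (SE 0.28, limma adjusted p = 0.239). DBF4, the subunit that activates the origin-firing kinase CDC7, had a log2 fold change of 0.39 and HMMR, a spindle-associated protein, one of 0.53, but HMMR lay at 3.06 to 4.16, in the range of absent transcripts.
Lower in males were RPA1, the large subunit of the protein that coats single-stranded DNA (log2 fold change -0.34, limma adjusted p = 0.182), and BTG1, which restrains proliferation (-0.29, adjusted p = 0.244), both without overlap of the sexes. CDK9, the kinase of transcription elongation, read 9.04, 9.18 and 9.93 in males and 9.94, 10.01 and 10.11 in females. Male replicate 3 lay just under the lowest female, so the sexes did not overlap here either. The log2 fold change was -0.64 (SE 0.23, limma adjusted p = 0.238).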

How the data were processed

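From each of 3 male and 3 female pigs, 400 ng of leaflet RNA had been labelled and hybridized to Affymetrix Porcine Genome Arrays, 1 pig per array. The deposited table holds RMA expression values on the log2 scale (R 2.12.0 per the labels), for which the authors corrected background, quantile-normalized the arrays and summarized the probes. Raw intensities were not used here, so these steps were not repeated, and small differences shared by an array cannot be separated from its scaling.

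Of 24123 probe sets, 124 controls were left out. limma 3.58.1 (lmFit and eBayes, R 4.3.3, statmod 1.5.0) compared male with female arrays over the other 23999 without covariates, and calls needed a p under 0.05 after Benjamini-Hochberg adjustment and a difference of at least 2-fold. The fit was tested on simulated data. The CV filter kept the 10% of probe sets with the highest SD over mean of the 6 log2 values. The share and the direction are choices made here. The study's methods give no share and describe the filter as removing values too unlike across biological replicates. With the choice made here 183 probe sets were called, the same number as the genes the authors report. Genes were named by the array's annotation (10069 probe sets with 1 gene), with the probe set of highest mean per gene. No genome build is named for the array in the sources used here, so no positions are given, and a planned look at promoter sequences was not run. Full values go to TOP2A, PCNA, RRM2, EZH2 and to genes with an unadjusted p under 0.05 or no overlap of the sexes. Outside this rule, the values on each array are also printed for CDKN1B, RBL2, CCNB1, CCNB2 and UBE2C. Members and lists were chosen with earlier results of these data known. The labels name separate animals; no litter, day or batch is given. Alternatives were other filters, variance models, scalings, array weights, an ordinary test, the mean of a gene's probe sets, the replicate number as a block and leaving out each array. Plots were made in Python 3.11.15 (matplotlib 3.10.9).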

Additional observations from a re-analysis of the deposited data

How the results depend on the processing

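None of the counted cell cycle genes was called under any of the 17 alternatives, the CV filter, array weights and the replicate number as a block included, and the 80 further genes gave 0 calls as well. The EZH2 probe set named by the authors' list, which was not counted, passed with the CV filter (adjusted p = 0.0410 from limma). For the 10 genes with full statistics, direction and call were the same in 141 of 141 alternative values, with adjusted p values from 0.0653 (BUB3) to 0.890 (TOP2A). Much of this was fixed in advance. In 7 of these genes the sexes do not overlap, so leaving out 1 array cannot change the sign. The ordinary test, the replicate number as a block and dropping the minimum fold leave the fold change as it is. The count of cell cycle genes with a higher mean in males was 26 or 27 of 36 or 37, 25 of 35 without dim probe sets, and 4 of 4 with the CV filter, where fewer genes are tested. Their median log2 fold change was 0.58 with the CV filter and 0.14 to 0.30 when single arrays were left out. Cell cycle genes with an unadjusted p under 0.05 and higher in males numbered 0 with the CV filter, 10 with array weights, 4 with the ordinary test and 2 to 14 when single arrays were left out; lower in males were 2 with array weights and 0 to 2 without single arrays. For the further genes the higher count was 0 with the CV filter, 8 with array weights, 2 with the ordinary test and 0 to 12 without single arrays, and the lower count 0 with the CV filter, 4 with the ordinary test and 1 to 6 without single arrays. Calls over all probe sets shifted too, from 73 to 280 with array weights, 204 with the replicate number as a block and 8 with the ordinary test. Shares of all probe sets at the unadjusted p under these settings are not given here. The cause of these shifts was not tested. In a fit that blocked on the replicate number, the cell cycle genes higher in males numbered 11 and the further genes lower in males 4, but the numbers do not pair the arrays: the same-numbered deviations correlated at -0.10, 0.01 and 0.27, and male replicates 1 and 2 correlated better with another number. With CDK6 counted, an alternative chosen after seeing the data, 7 genes were higher and 27 of 37 had a higher mean. A call needed a 2-fold difference, which none of the 36 counted genes reached over all arrays and 1 probe set of CDK6 did, and without a minimum fold there were 0 calls as well.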
